A study of Mus musculus with 6 samples.

Results

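The collagen genes of mouse dorsal root ganglia (DRGs) were examined after virus-driven expression of a long noncoding RNA. They were taken as all 44 genes of the count table, out of 48440, whose symbol is Col, a number, the letter a and a second number. DRGs hold the cell bodies of sensory neurons, with satellite glia, Schwann cells, fibroblasts and vessels around them. RNA was sequenced from L3/4 DRGs on the injected side of wild-type male mice. One group received AAV5-Gfp, an adeno-associated virus of serotype 5 that carries green fluorescent protein. The other, AAV5-V1+V2, received AAV5-V1 mixed with AAV5-V2, viruses that carry the V1 and V2 variants of the nerve injury-specific lncRNA (NIS-lncRNA), and the comparison addressed which genes change when this RNA is raised. Each group had 3 libraries, and all mice had a viral injection into the ganglion. The series' design text gives 5 weeks from microinjection to harvest in one place and 4 weeks in another. The groups differ in the viral preparation as well as in the RNA it carries, and these cannot be told apart. NIS-lncRNA itself was not analysed here. The promoter of the viral inserts, and whether each library came from 1 mouse or from pooled ganglia, were not given in the sources used here, so that p-values measure the spread between these libraries, which may be technical.

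Collagens are secreted or membrane proteins whose alpha chains wind around each other into rope-like helices. Fibrillar collagens (types I, II, III, V, XI, XXIV and XXVII) form the cables of connective tissue, and in nerve and ganglion they make up the endoneurium, perineurium and epineurium. Basement membrane collagens form the sheets (type IV) on which endothelium, Schwann cells and satellite glia rest, with types XV and XVIII at their edges. The remaining types include type VI, which makes fine beaded filaments between cells and fibres, the fibril-associated types that sit on the surface of fibrils, the network-forming and anchoring types, and types that span the cell membrane. Fibroblasts are the best known source of fibrillar and type VI chains.

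The libraries held 32025612 to 34764282 counts. Levels are given as CPM, read counts scaled to a common library total, after TMM normalization, which corrects the totals for differences in composition, and levels of different genes are compared only as CPM per kb of exon. Of the 44 collagen genes, 42 passed the filter on low counts and were among the 18593 genes tested. Col9a1, a chain of cartilage, had 3 to 12 counts per library and Col10a1, a chain of growth plate cartilage, 0 to 2 counts. The 42 were 11 fibrillar, 8 basement membrane and 23 other genes. Markers of the tissue named in the labels were abundant: 8 sensory neuron markers summed to 6179 to 6611 CPM in AAV5-Gfp and 3693 to 5688 CPM in AAV5-V1+V2, and 8 Schwann cell markers to 3578 to 4334 and 3785 to 4187 CPM.

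Collagen RNA took a larger part of the AAV5-V1+V2 libraries. Collagen genes held 0.268%, 0.287% and 0.235% of the counts of the AAV5-Gfp libraries, replicates 1, 2 and 3 in turn. The shares were 0.468%, 0.384% and 0.346% of the AAV5-V1+V2 libraries in the same order, so that the groups did not overlap. In edgeR's quasi-likelihood test, fitted over all 18593 genes with Benjamini-Hochberg adjustment, 15 of 42 collagen genes (35.7%) rose at an adjusted p under 0.05, against 10.1% of all genes. They were 3 fibrillar genes, 3 basement membrane genes and 9 of the others, and 6 of these 9 were all the chains of type VI collagen. Col24a1 and Col4a4 fell, 2 of 42 against 5.27% of all genes. The median log2 fold change of the 42 was 0.32, from -0.61 to 2.21, against -0.0003 over all genes. Levels did not overlap between the groups for 27 of 42, 21 of them above and 6 below in AAV5-V1+V2, against 45.4% of all genes.

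These calls depended on single libraries. With AAV5-Gfp replicate 2 or AAV5-Gfp replicate 3 left out, 0 collagen genes passed in edgeR's test in either direction, although 19 and 17 were higher and 3 and 5 lower at an unadjusted p under 0.05. In the same fits 12 and 15 genes of the whole table passed as higher. Without AAV5-Gfp replicate 1, Col6a1, Col6a4 and Col24a1 still passed, and without AAV5-V1+V2 replicate 2, Col3a1, Col6a2, Col6a4, Col6a5, Col6a6 and Col24a1. Without AAV5-V1+V2 replicate 1, Col4a2 and Col4a4 no longer passed, and without AAV5-V1+V2 replicate 3, Col12a1. All 17 called genes kept their direction when any of the 6 libraries was left out.

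**Figure D1:**
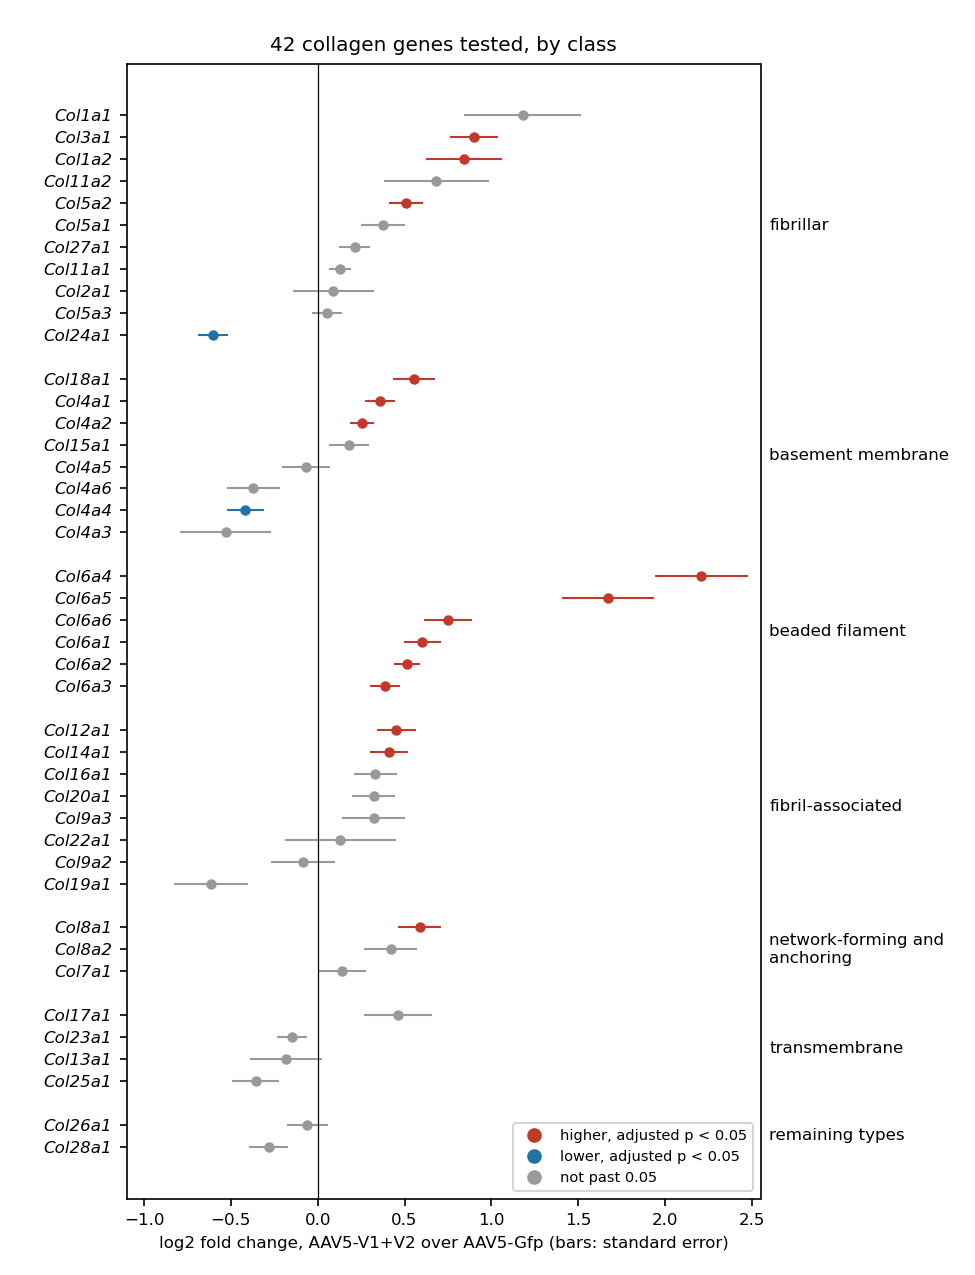
Log2 fold change of AAV5-V1+V2 over AAV5-Gfp (horizontal axis) for each of the 42 collagen genes tested, by class, with its standard error as a bar and colour for the call at an adjusted p under 0.05. All 6 type VI genes lie to the right of 0, from 0.39 for Col6a3 to 2.21 for Col6a4, while the basement membrane genes lie on both sides.

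In bulk RNA, a sample with fewer cells of a type and one with less RNA per cell cannot be told apart. Marker RNA of macrophages, lymphocytes and sensory neurons also differed between the groups. Of 6 macrophage markers 6 rose, with sums of 87.3 to 120 CPM in AAV5-Gfp and 192 to 362 CPM in AAV5-V1+V2, and of 5 lymphocyte markers 5 rose, with sums of 3.61 to 8.64 and 195 to 253 CPM. All 8 sensory neuron markers had negative fold changes (median -0.47), and 1 of the 8 passed. This was Rbfox3, a splicing factor of neuronal nuclei, which fell by 0.93 on the log2 scale (adjusted p = 0.0256, edgeR). AAV5-V1+V2 replicate 1 had the highest collagen share, the highest macrophage sum and the lowest neuron sum of all 6 libraries. The part of these cells in the collagen values was not tested.

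Promoter sequences are shown because several collagen genes moved in the same direction. RefSeq promoter windows (GRCm38.p6) were found for 35 of the 44 genes, as 38 windows, and the 250 bases before each start were searched on both strands for the CCAAT box (CCAAT or ATTGG), the GC box (GGGCGG or CCGCCC) and a TATA box (TATAAA or TTTATA). The GC box was found in 22 of 38 collagen windows (57.9%) and in 32.7% of all 32851 windows of this length, the CCAAT box in 13 of 38 (34.2%) and in 33.8% of all, and the TATA box in 5 of 38 (13.2%) and in 12.4% of all. Of the 14 windows of genes that rose, 9 held a GC box, 5 a CCAAT box and 1 a TATA box. Among these genes Col18a1 and Col6a2 had more than 1 window each, and Col5a2, Col12a1 and Col14a1 had none. In the windows of Col4a1, Col4a2 and Col6a4 all 250 bases searched lay in annotated exons. A match says only that these letters are present.

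Below are the 250 bases before the start of 3 genes that rose, one each of the fibrillar, type VI and network-forming groups, and of Col24a1, which fell, 5′ to 3′ on the strand of the gene with capitals on the motif matches. They differ in base composition: G and C make up 35.2% of the Col3a1 stretch (chr1:45311288-45311537, plus strand), 59.2% of Col6a2 (chr10:76623631-76623880, minus strand), 60.8% of Col8a1 (chr16:57754738-57754987, minus strand) and 58.0% of Col24a1 (chr3:145292222-145292471, plus strand). The Col3a1 stretch has 1 TATA box match and no GC box, that of Col6a2 has 1 GC box, that of Col8a1 has 4 and that of Col24a1 has 0 matches to the 3 motifs. Col6a2 has another RefSeq start, whose window is not printed. It holds 3 GC box matches, and 226 of its 250 bases lie in annotated exons.
Col3a1: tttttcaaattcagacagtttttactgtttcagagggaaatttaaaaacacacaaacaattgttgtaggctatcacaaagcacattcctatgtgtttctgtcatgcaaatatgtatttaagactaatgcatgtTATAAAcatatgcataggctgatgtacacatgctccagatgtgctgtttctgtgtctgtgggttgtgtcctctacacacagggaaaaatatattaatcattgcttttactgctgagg
Col6a2: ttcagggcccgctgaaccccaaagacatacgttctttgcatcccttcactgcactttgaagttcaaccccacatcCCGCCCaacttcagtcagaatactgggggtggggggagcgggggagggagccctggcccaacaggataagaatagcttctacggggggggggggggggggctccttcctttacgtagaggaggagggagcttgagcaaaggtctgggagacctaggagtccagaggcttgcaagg
Col8a1: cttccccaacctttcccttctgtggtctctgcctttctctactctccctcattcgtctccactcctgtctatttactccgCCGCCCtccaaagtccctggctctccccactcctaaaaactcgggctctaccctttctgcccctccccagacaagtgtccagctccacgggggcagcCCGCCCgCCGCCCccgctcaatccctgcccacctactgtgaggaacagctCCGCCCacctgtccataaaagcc
Col24a1: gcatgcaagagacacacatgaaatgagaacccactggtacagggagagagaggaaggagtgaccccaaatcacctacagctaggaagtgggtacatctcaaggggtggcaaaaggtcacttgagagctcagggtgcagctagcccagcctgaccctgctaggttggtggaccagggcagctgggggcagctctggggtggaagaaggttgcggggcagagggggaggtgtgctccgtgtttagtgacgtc

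Among the fibrillar genes, the chains of types I and III were the most abundant collagens per length and had the largest positive fold changes of their class. Col3a1 (chr1:45311538-45349706, plus strand), whose product alone forms the type III collagen of soft tissue, was at 362, 397 and 308 CPM in the AAV5-Gfp libraries and at 763, 648 and 578 CPM in the AAV5-V1+V2 libraries, here and for every gene below in the order of replicates 1, 2 and 3. Every AAV5-V1+V2 library was thus above every AAV5-Gfp library, and the means were 356 ± 44.8 and 663 ± 93.4 CPM (SD, n = 3 each). Col3a1 rose by 0.90 on the log2 scale (SE 0.14, adjusted p = 0.0146, edgeR). It had the highest level per length of all 44 genes in both groups, 36.2 CPM per kb in AAV5-Gfp and 67.6 CPM per kb in AAV5-V1+V2.

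Type I collagen, the main fibre of bone, tendon and scar, is built from the products of Col1a1 and Col1a2. Col1a2 (chr6:4504814-4541544, plus strand) was at 337, 373 and 294 CPM in AAV5-Gfp and at 817, 530 and 454 CPM in AAV5-V1+V2, with no overlap, and rose by 0.84 (SE 0.22, adjusted p = 0.0425). Col1a1 (chr11:94936224-94953042, plus strand) was at 145, 200.5 and 160 CPM and at 611, 294 and 240 CPM. The AAV5-V1+V2 libraries were again all above, but replicate 1 was far above the others, and the difference of 1.18 (SE 0.34) missed the threshold with an adjusted p of 0.0549 in edgeR. Without AAV5-V1+V2 replicate 1 the log2 fold change of Col1a1 was 0.67 (SE 0.15, adjusted p = 0.0266) and that of Col1a2 0.56 (SE 0.12, adjusted p = 0.0221). In the raw data, Col1a1 had 20098 counts in that library and 4677 to 9772 in the other 5. The ratio of Col1a1 to Col1a2 per kb was 1.42 there and 0.81 to 1.05 elsewhere, and the groups' ratios could not be separated (exact permutation test, two-sided p = 0.3, where 3 against 3 libraries cannot go below 0.1).

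Bone cells are one source of type I chains. In AAV5-V1+V2 replicate 1, Bglap, which encodes the bone protein osteocalcin, had 139 counts against 5 to 41 in the other libraries, and Dmp1, a matrix protein of osteocytes chosen after its values were seen, 94 against 10 to 41. Both were picked from a list of 8 cartilage and bone markers, and the others are not given per library. Of the 6 tested 0 passed in edgeR (2 were higher at an unadjusted p under 0.05, Acan and Bglap). Their log2 fold changes ran from -0.15 to 2.04, and 5 were positive. The whole list of 8 summed to 23.6 to 32.8 CPM in AAV5-Gfp and 26.0 to 35.2 CPM in AAV5-V1+V2, so that the groups overlapped. The highest sum, 35.2 CPM, was in AAV5-V1+V2 replicate 1, and AAV5-Gfp replicate 3 had 32.8 CPM. The part of bone cells in the level of Col1a1 was not tested.

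Col5a2 and its neighbour Col3a1 lie tail to tail on chromosome 1, 24.6 kb apart. Col5a2 (chr1:45374321-45503282, minus strand), a chain of the type V collagen that sets the width of type I fibrils, was at 176, 199 and 167 CPM in AAV5-Gfp and at 282, 253 and 239 CPM in AAV5-V1+V2. The groups did not overlap, and it rose by 0.51 (SE 0.098, adjusted p = 0.0219). Its partner Col5a1, described after its values were seen, had 102, 111 and 91.8 CPM and 153, 133 and 111 CPM, so that the lowest AAV5-V1+V2 library was level with the highest AAV5-Gfp library. The difference of 0.38 (SE 0.13) did not pass (adjusted p = 0.0843).

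Col24a1 (chr3:145292472-145552011, plus strand), a minor fibrillar chain, went the other way. It was at 41.9, 49.2 and 45.3 CPM in AAV5-Gfp and at 30.2, 27.8 and 31.6 CPM in AAV5-V1+V2, all below the AAV5-Gfp libraries. It fell by 0.61 on the log2 scale (SE 0.086, adjusted p = 0.0144). The other 6 fibrillar genes (Col2a1, Col5a1, Col5a3, Col11a1, Col11a2 and Col27a1) had log2 fold changes of 0.05 to 0.68 and 0 of these 6 passed in edgeR (2 were higher at an unadjusted p under 0.05). Over the 11 fibrillar genes the median was 0.38, and it was 0.26 without AAV5-V1+V2 replicate 1. Fibrillar genes took 48.9% to 52.2% of all collagen counts in AAV5-Gfp and 52.9% to 62.5% in AAV5-V1+V2.

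**Figure D2:**
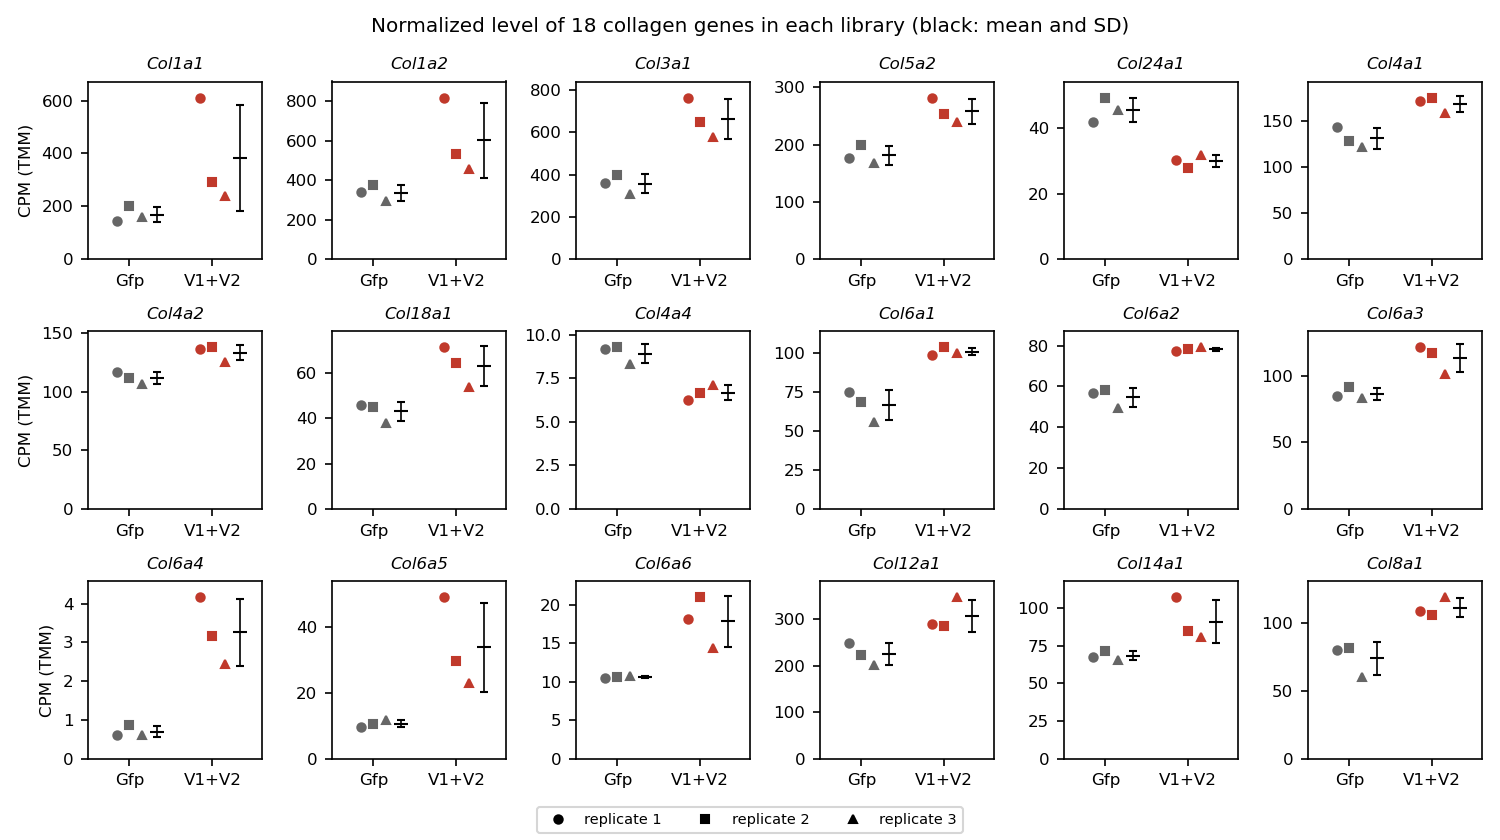
Level of 18 collagen genes in each library, in CPM after TMM normalization (vertical axes start at 0), for AAV5-Gfp (grey) and AAV5-V1+V2 (red), with marker shape for the replicate number and the mean and SD of each group in black. Col1a1 in AAV5-V1+V2 replicate 1 stands at 611 CPM, above 294 and 240 CPM in the same group, while Col6a2 is at 77.3 to 79.1 CPM in all 3 AAV5-V1+V2 libraries.

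The basement membrane genes divided by chain. The ubiquitous chains of type IV collagen and the chain of type XVIII were higher. The other type IV chains and the chain of type XV were lower or did not pass. The median of the 8 genes was 0.06 (-0.02 without AAV5-Gfp replicate 3). Col4a1 (chr8:11198423-11312826, minus strand) was at 144, 128 and 122 CPM in AAV5-Gfp and at 172, 175 and 158 CPM in AAV5-V1+V2, and rose by 0.36 (SE 0.084, adjusted p = 0.0341). Col4a2 (chr8:11312805-11449287, plus strand), whose product joins that of Col4a1 in one helix, was at 117, 112 and 107 CPM and at 136, 138 and 126 CPM, and rose by 0.25 (SE 0.069, adjusted p = 0.0490). Both pairs of groups were apart without overlap. Col4a2 did not pass in limma-voom or without the filter on low counts.

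The genes of both chains are arranged head to head. In RefSeq (GRCm38.p6), whose gene ends differ from the GENCODE ends given with each gene, their starts overlap by 85 bases and those of Col4a3 and Col4a4 by 114 bases, and 1274 bases lie between Col4a5 and Col4a6. By the GENCODE ends Col4a3 and Col4a4 do not overlap. Whether the counting used the strand was not given in the sources used here, and reads from such overlaps could then fall to either gene. The ratio of Col4a1 to Col4a2 per kb was 1.01 to 1.09 in AAV5-Gfp and 1.12 to 1.13 in AAV5-V1+V2 (exact permutation test, two-sided p = 0.1, the smallest that 3 against 3 can give). It was one of 9 ratios of partner chains, chosen after the values were seen, and with adjustment over 9 none of them can pass.

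Col18a1 (chr10:77052178-77166548, minus strand), which encodes the source of endostatin, was at 46.0, 45.2 and 38.2 CPM in AAV5-Gfp. In AAV5-V1+V2 it was at 71.4, 64.6 and 54.0 CPM, above all controls, and it rose by 0.55 (SE 0.12, adjusted p = 0.0279). Col4a4 (chr1:82448423-82586849, minus strand), known from the basement membranes of kidney and inner ear, was at 9.17, 9.26 and 8.30 CPM and at 6.26, 6.67 and 7.08 CPM. It fell by 0.42 (SE 0.11, adjusted p = 0.0427), but did not pass with total counts only, without the filter on low counts or with a replicate block. Col4a3, Col4a5, Col4a6 and Col15a1 had log2 fold changes from -0.53 to 0.18 and did not pass. Of the endothelial markers, Pecam1 rose and Flt1 fell and 5 of 7 did not pass, and of 8 mural cell and 8 Schwann cell markers 0 passed in edgeR (0 also at an unadjusted p under 0.05).

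Type VI collagen was the class in which every gene tested rose, with a median of 0.68. Col6a1 and Col6a2 encode the short chains and are neighbours on chromosome 10, 85.2 kb apart. Col6a1 (chr10:76708792-76726168, minus strand) was at 75.1, 68.3 and 55.9 CPM in AAV5-Gfp and at 98.9, 104 and 100.1 CPM in AAV5-V1+V2, and rose by 0.60 (SE 0.11, adjusted p = 0.0182). Col6a2 (chr10:76595762-76623630, minus strand), whose promoter stretch is printed above, was at 56.9, 58.0 and 49.5 CPM and at 77.3, 78.1 and 79.1 CPM, and rose by 0.51 (SE 0.075, adjusted p = 0.0144). The AAV5-V1+V2 libraries lay close together for both genes and apart from the AAV5-Gfp libraries. Col6a3 (chr1:90765923-90843971, minus strand), the common long chain, was at 84.6, 91.6 and 83.4 CPM and at 121, 117 and 101 CPM, without overlap, and rose by 0.39 (SE 0.085, adjusted p = 0.0287).

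The alternative long chains Col6a4, Col6a5 and Col6a6 lie in a row on the minus strand of chromosome 9, with gaps of 27.8 and 27.9 kb between the RefSeq gene ends, and Col6a4 and Col6a5 had the largest positive fold changes of all collagen genes. Col6a4 (chr9:105989454-106096783) was rare: 20, 30 and 19 counts in AAV5-Gfp, or 0.620, 0.866 and 0.609 CPM, against 137, 105 and 84 counts in AAV5-V1+V2, or 4.16, 3.15 and 2.45 CPM. The lowest AAV5-V1+V2 library was above the highest AAV5-Gfp library, and Col6a4 rose by 2.21 (SE 0.27, adjusted p = 0.0139). Col6a5 (chr9:105856078-105960643) was at 9.54, 10.5 and 11.8 CPM and at 48.9, 29.5 and 23.0 CPM, and rose by 1.67 (SE 0.27, adjusted p = 0.0155). It too was highest in AAV5-V1+V2 replicate 1, and without that library the log2 fold change was 1.31 (adjusted p = 0.0019).

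Col6a6 (chr9:105687809-105828160) was at 10.5, 10.6 and 10.7 CPM in AAV5-Gfp and at 18.1, 21.0 and 14.4 CPM in AAV5-V1+V2. Its groups were apart, and it rose by 0.75 (SE 0.14, adjusted p = 0.0196). Col6a5 and Col6a6 stood at nearly the same level per length in AAV5-Gfp, with a ratio of 0.885, 0.961 and 1.07, and in AAV5-V1+V2 the ratio was 2.63, 1.37 and 1.55, above all controls (exact permutation test, two-sided p = 0.1, the smallest possible here). These genes are paralogs, and how reads shared between them were counted was not given, so that the split between them is uncertain. Per length, the 3 alternative chains stayed below the common ones: in AAV5-V1+V2 the means were 0.382, 3.59 and 1.94 CPM per kb for Col6a4, Col6a5 and Col6a6 and 23.0, 9.38 and 9.46 CPM per kb for Col6a1, Col6a2 and Col6a3. The lengths count all annotated exons of a gene, 4.38 kb for Col6a1 and 8.33 kb for Col6a2. The gap between these genes per length thus depends on the annotation.

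Of the 8 fibril-associated genes tested, 2 rose. Col12a1 (chr9:79598991-79718831, minus strand), which links fibrils to the surrounding matrix, was at 249, 223 and 201 CPM in AAV5-Gfp and at 290, 284 and 347 CPM in AAV5-V1+V2, and rose by 0.45 (SE 0.11, adjusted p = 0.0394). Its highest value was in AAV5-V1+V2 replicate 3, where the type I chains were lowest within the group. Col14a1 (chr15:55307750-55520803, plus strand), a related chain of mature connective tissue, was at 67.8, 71.6 and 65.8 CPM and at 107, 84.7 and 80.8 CPM, and rose by 0.41 (SE 0.11, adjusted p = 0.0483). Neither overlapped between groups, and Col14a1 did not pass with RLE normalization or limma-voom. The other 6 (Col9a2, Col9a3, Col16a1, Col19a1, Col20a1 and Col22a1) had log2 fold changes from -0.61 to 0.33 and did not pass.

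In the remaining groups, Col8a1 rose. Col8a1 (chr16:57624258-57754737, minus strand), a network-forming chain of vessel walls and of Descemet's membrane in the eye, was at 80.4, 81.6 and 60.1 CPM in AAV5-Gfp and at 109, 106 and 119 CPM in AAV5-V1+V2. The lowest AAV5-V1+V2 library was above the highest AAV5-Gfp library, and the log2 fold change was 0.59 (SE 0.12, adjusted p = 0.0258). Its partner Col8a2 and the anchoring fibril chain Col7a1 had 0.42 and 0.14 and did not pass. Of the 4 transmembrane genes (Col13a1, Col17a1, Col23a1 and Col25a1) 0 passed in edgeR (1 was higher and 1 lower at an unadjusted p under 0.05), and their median was -0.17. Their summed level was 87.3 to 99.2 CPM in AAV5-Gfp and 75.1 to 87.4 CPM in AAV5-V1+V2. Neither Col26a1 nor Col28a1 passed, at -0.06 and -0.28. Col28a1, a chain of peripheral glia described after its values were seen, was at 90.1, 114 and 94.0 CPM in AAV5-Gfp and at 73.6, 89.3 and 82.2 CPM in AAV5-V1+V2.

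**Figure D3:**
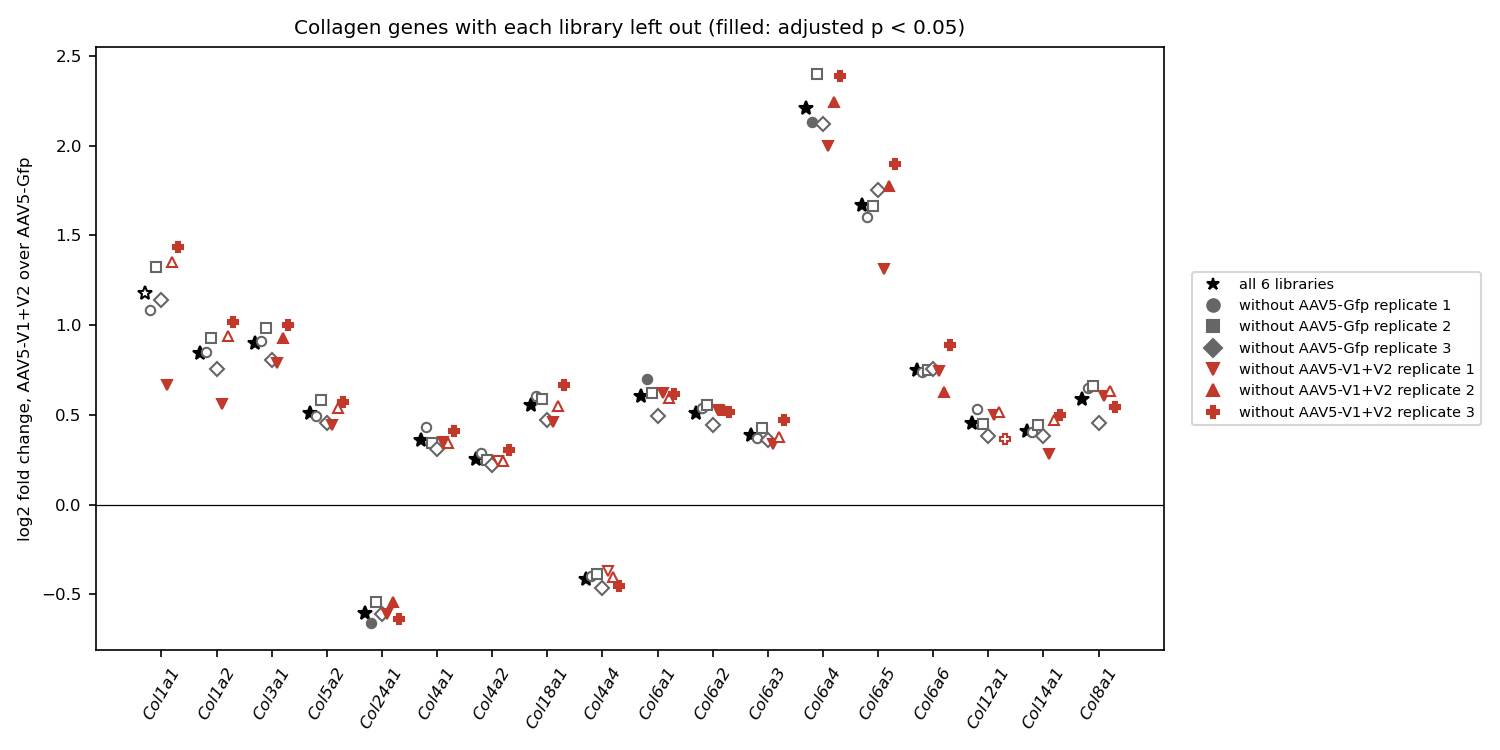
Log2 fold change of AAV5-V1+V2 over AAV5-Gfp (vertical axis) of 18 collagen genes with all 6 libraries (stars) and with each library left out, filled where the adjusted p was under 0.05. The signs did not change, and 0 of the 18 genes were filled without AAV5-Gfp replicate 2 or AAV5-Gfp replicate 3.

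Collagen chains are hydroxylated, folded and glycosylated in the endoplasmic reticulum. Of 18 genes for these steps 5 rose (27.8%) and 1 fell (5.56%), against 10.1% and 5.27% of all genes, and the median was 0.26. Serpinh1, the collagen chaperone HSP47, was at 66.8, 67.4 and 69.3 CPM in AAV5-Gfp and at 124, 109 and 91.4 CPM in AAV5-V1+V2, and rose by 0.67 (SE 0.11, adjusted p = 0.0158). Plod2, a lysyl hydroxylase, rose by 0.50 (adjusted p = 0.0231) and P4hb, the beta subunit of prolyl 4-hydroxylase, by 0.33 (adjusted p = 0.0290). The gene that fell was P4ha3, which encodes a catalytic subunit of the same enzyme and was chosen after its values were seen, with a log2 fold change of -0.44 (adjusted p = 0.0338).

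Outside the cell, propeptides are cut off and fibrils cross-linked. Of 13 genes listed for these steps 1 rose (7.69%), the lysyl oxidase Loxl1 (0.66, SE 0.13, adjusted p = 0.0233). The tolloid-like protease Tll2 was the 1 that fell (-0.78, SE 0.19, adjusted p = 0.0378), and the median was 0.24. Of 11 collagen receptors 2 rose (median 0.20): Lair1, an inhibitory receptor of leukocytes, by 1.47 (SE 0.26, adjusted p = 0.0176), and Ddr2, a receptor kinase for fibrillar collagen, by 0.25 (SE 0.067, adjusted p = 0.0479). Of 11 small proteoglycans that bind collagen 2 rose (median 0.25), Bgn by 0.62 (adjusted p = 0.0186) and Aspn by 0.73 (adjusted p = 0.0307). Among 16 laminins and other partners of type IV collagen 2 rose (median 0.06), the laminin chain Lamb3 by 1.93 (SE 0.26, adjusted p = 0.0144) and Nid1, a linker of laminin and type IV collagen, by 0.31 (adjusted p = 0.0377). Each share stands against the 10.1% of all genes that rose and the 5.27% that fell. The shares that rose for propeptide removal and cross-linking (7.69%) and for partners of type IV collagen (12.5%) were near 10.1%.

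Transforming growth factor beta is the best known inducer of collagen genes in fibroblasts. Of 16 genes of fibrosis signalling tested, 5 rose and 1 fell, against 10.1% and 5.27% of all genes, and the median was 0.49. The receptor genes Tgfbr1 (0.67, SE 0.11, adjusted p = 0.0169) and Tgfbr2 (0.58, SE 0.11, adjusted p = 0.0221) rose. The ligand gene Tgfb1 was at 3.69, 4.24 and 2.95 CPM in AAV5-Gfp and at 16.4, 8.11 and 7.11 CPM in AAV5-V1+V2, and rose by 1.54 (SE 0.33, adjusted p = 0.0278). The ligand genes did not move together. The gene that fell was Tgfb2, named after its values were seen (-0.33, SE 0.087, adjusted p = 0.0460, edgeR). It was at 13.7, 14.0 and 12.8 CPM in AAV5-Gfp and at 10.5, 11.2 and 10.6 CPM in AAV5-V1+V2. Tgfb3, also named after its values were seen, did not pass (0.14). Leukocytes also express Tgfb1 and Lair1, and both had their highest level in AAV5-V1+V2 replicate 1, as had the macrophage marker sum. Their part in these values was not tested. The list of 11 genes of collagen breakdown also held the protease inhibitor genes Timp1, Timp2 and Timp3. Of the 11, 1 rose (9.09%), near the 10.1% of all genes, and 0 fell. It was the membrane collagenase Mmp14 (0.76, SE 0.20, adjusted p = 0.0450). The median of the list was 0.55, and its sums overlapped, at 1665 to 1701 CPM in AAV5-Gfp and 1613 to 1735 CPM in AAV5-V1+V2.

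Fibroblast markers were higher in their sum, at 119 to 141 CPM in AAV5-Gfp and 156 to 183 CPM in AAV5-V1+V2. Of 8 markers 2 rose, against 10.1% of all genes, and all 8 had positive fold changes (median 0.39). Dpt, which encodes the matrix protein dermatopontin, was at 1.15, 1.27 and 0.993 CPM and at 5.68, 4.00 and 2.57 CPM and rose by 1.84 (SE 0.31, adjusted p = 0.0164), and Scara5 rose by 0.53 (SE 0.096, adjusted p = 0.0191). Pdgfra, the growth factor receptor by which fibroblasts are commonly recognised, missed the threshold at 0.43 (SE 0.12, adjusted p = 0.0520). Of 6 meningeal and 6 skeletal muscle markers 0 passed in edgeR (0 also at an unadjusted p under 0.05). Muscle marker sums were 23.7 to 381 CPM in AAV5-Gfp and 9.10 to 112 CPM in AAV5-V1+V2. Of 6 satellite glia markers the glutamate transporter gene Slc1a3 rose (0.35, adjusted p = 0.0391), 5 did not pass, among them the potassium channel gene Kcnj10 at -0.29 with no overlap between groups, and the median was -0.04. The part of fibroblast number in the collagen values was not tested.

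**Figure D4:**
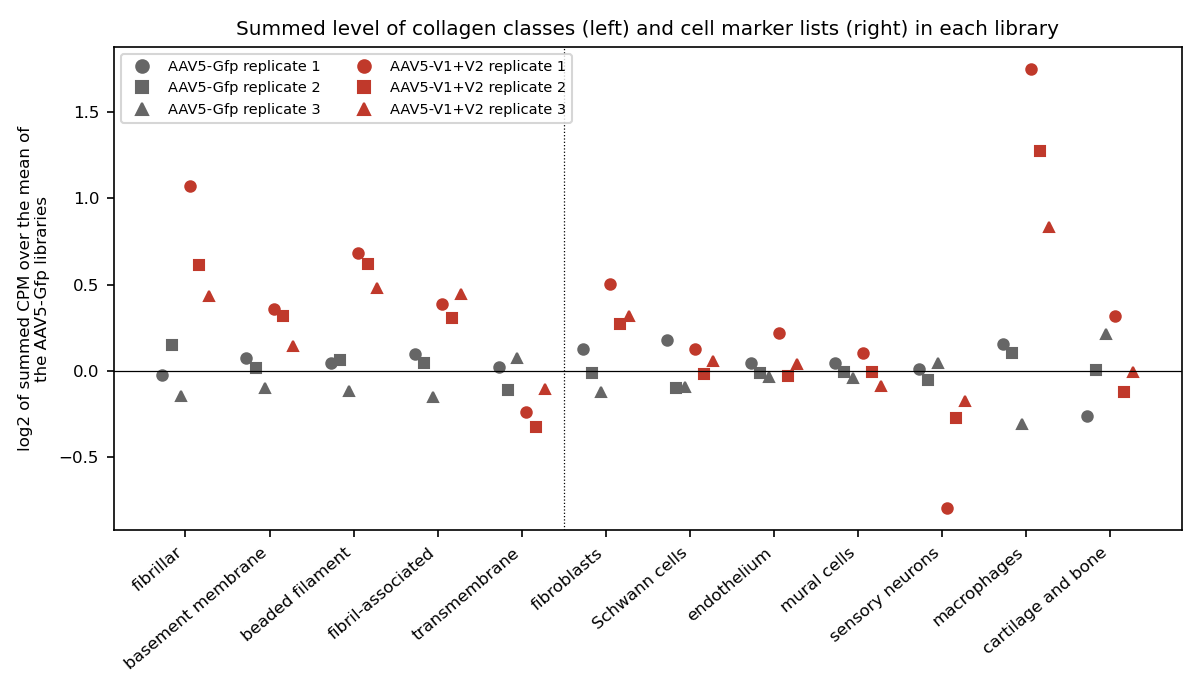
Summed CPM of 5 collagen classes (left of the dotted line) and 7 cell marker lists (right) in each library, as log2 of the ratio to the mean of the AAV5-Gfp libraries, grey for AAV5-Gfp and red for AAV5-V1+V2. AAV5-V1+V2 replicate 1 (red circles) is highest for fibrillar collagens and macrophages and lowest for sensory neurons, while Schwann cell and mural cell sums overlap between groups.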

How the data were processed

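Libraries were made from total RNA with a TruSeq Stranded Total RNA kit, per the labels, and read counts per gene were deposited by the authors on GRCm38 (mm10). The aligner, the counter, its annotation and its use of strand were not given in the sources used here. The deposited counts, not normalized, were used as they stood. Genes with low counts were removed with filterByExpr, and TMM normalization, glmQLFit and glmQLFTest of edgeR 4.0.16 (R 4.3.3) were applied to all 6 libraries with Benjamini-Hochberg adjustment over all genes tested and a threshold of 0.05. The standard error was the log2 fold change divided by the square root of the F statistic. Exon lengths and gene coordinates were taken from GENCODE M21. A length was the union of all annotated exons of a gene, so that levels per length depend on that annotation. Promoters and distances between neighbouring genes were taken from RefSeq (GRCm38.p6). The test was run on simulated data before use. The share of false calls among the collagen genes was not tested.

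Values per library were given for every collagen gene called, the 6 highest per length and the 3 with the smallest adjusted p in each class, and from each other list for at most 3 genes with the smallest adjusted p, with exceptions marked in the text. The members and lists were chosen with earlier results of these data known. The list entry Ccn2 was not matched by that symbol. Alternatives were RLE normalization, total counts only, no filter on low counts, DESeq2 1.42.0, limma-voom (limma 3.58.1), a replicate block and each library left out. No pair of libraries agreed within sampling noise (chi-square per degree of freedom of 8.87 or more within groups). Precision was limited by 3 libraries per group.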

Additional observations from a re-analysis of the deposited data

How the results depend on the processing

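The counts of collagen genes called were 15 higher and 2 lower. With all 6 libraries, the 6 alternatives gave 13 (limma-voom) to 17 (DESeq2 and the replicate block) higher, and 13 of the 15 were higher in each of them, all but Col4a2 and Col14a1. Lower calls numbered 1 with total counts only and 1 without the filter on low counts, and 3 with DESeq2 and with the replicate block, and Col24a1 was lower in all 6. Leaving out 1 library gave 0 to 16 higher and 0 to 4 lower collagen genes, with 0 and 0 when AAV5-Gfp replicate 2 or 3 was absent, 2 and 1 when AAV5-Gfp replicate 1 was, and 15 and 2, 5 and 1, and 16 and 4 when AAV5-V1+V2 replicate 1, 2 or 3 was. The smallest adjusted p of a collagen gene was 0.0815 without AAV5-Gfp replicate 2 and 0.0875 without AAV5-Gfp replicate 3 (edgeR), and the cause was not tested. The fibrillar median ranged from 0.26 to 0.50 when 1 library was left out. Over all genes, 1872 were higher and 980 lower, 1606 lower with DESeq2, and 12 to 2474 higher and 0 to 1446 lower with 1 library left out. Same-numbered libraries deviated from their group means with correlations of 0.036, 0.066 and 0.107. The other pairs had -0.104 to 0.043, the highest between AAV5-V1+V2 replicate 1 and AAV5-Gfp replicate 2. These small values do not settle whether the numbers pair the samples, and the main fit was unpaired. Col1a1 passed in 5 of 12 alternatives, and Col1a1 and the 17 called genes kept their direction in all 12. Each fit, with all 6 libraries or with 1 left out, assumed the same relative spread in both groups for a gene. This bears on the SE and p-values of the main fit as well. Depth limits Col9a1 and Col10a1, which were not tested.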
